A study of Mus musculus with 8 samples.

Results

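The BCL2 family of apoptosis regulators was followed here through 10 genes in mouse embryonic stem cells (ESCs) with and without the nuclear receptor Dax1 (gene symbol Nr0b1). The members were given as a list of symbols: the anti-apoptotic genes Bcl2, Bcl2l1 and Mcl1, the effectors Bax and Bak1, and the BH3-only genes Bcl2l11, Bid, Bbc3, Pmaip1 and Bmf. The symbols were matched to the Ensembl gene identifiers of the count files, and all 10 members were found among the 52550 genes listed. All 10 also passed the filter on low counts that left 20749 genes for testing, although Bcl2 did so with only 3 to 31 reads per library.

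In this pathway the effectors BAX and BAK1 open the outer membrane of the mitochondrion, which releases cytochrome c and starts the caspase cascade. The anti-apoptotic proteins BCL2, BCL-XL (from Bcl2l1) and MCL1 hold the effectors and the BH3-only proteins in check. The BH3-only proteins BIM (from Bcl2l11), BID, PUMA (from Bbc3), NOXA (from Pmaip1) and BMF carry death signals to the other members, either by activating the effectors or by occupying the anti-apoptotic proteins. Much of this control acts on the proteins, through their turnover, cleavage and binding, and messenger RNA counts do not show it.

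The messenger RNA of control and Dax1KO cells had been sequenced after culture in 2i/LIF or LIF/serum, which gives 4 groups of 2 libraries. All groups were at passage 3, on gelatin, in medium with 10 ng/ml LIF. The 2i/LIF medium was N2B27 with the MEK inhibitor PD0325901 at 1 μM and the GSK3 inhibitor CHIR99021 at 3 μM, and the LIF/serum medium was DMEM with 15% FBS. Dax1KO cells were made with CRISPR/Cas9 from a lentiviral vector and a guide at the start codon, and the study describes its functional work on 1 clone that had been isolated in 2i/LIF, so that a change in these cells cannot be told apart from a property of that clone. The labels do not say that the 2 libraries of a group came from separate cultures, and p-values therefore measure only the spread between these libraries.

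Total counts lay between 35911384 and 37286251 per library. Dax1 itself was counted at 456 and 300 reads in the control libraries in 2i/LIF, at 5095 and 4689 in the control libraries in LIF/serum, at 0 in both Dax1KO libraries in 2i/LIF and at 14 and 6 in those in LIF/serum. The ESC markers (10 genes, among them Pou5f1, Sox2 and Nanog) had a summed level between 3665 and 4711 counts per kb of exon and 1000000 scaled counts (the level used below) in all 4 groups. Markers of other cell types were not alike in the groups. The 7 primitive endoderm markers summed to 9.88 to 9.95 in control and 7.81 to 9.84 in Dax1KO in 2i/LIF, and to 32.7 to 44.3 and 76.0 to 90.8 in LIF/serum. The 7 trophectoderm markers summed to 22.6 to 25.02 against 46.8 to 46.9 in 2i/LIF and to 25.9 to 27.1 against 56.6 to 59.5 in LIF/serum. Of these 7, 4 were above 0 in Dax1KO in 2i/LIF and 5 in LIF/serum. Krt18 and Tead4 passed the test given below in 2i/LIF, and 4 of the 7 passed in LIF/serum, beside 3.16% and 14.7% of all genes. Tead4 (log2 fold change 1.25 and 1.91) lies on chromosome 6, which was shifted upwards in Dax1KO. The 6 fibroblast markers summed to 16.4 to 20.7 and 10.8 to 11.4 in 2i/LIF and to 3.90 to 3.98 and 12.02 to 12.5 in LIF/serum, the 5 neural markers to 13.5 and 12.4 to 12.99 and to 4.42 to 4.74 and 2.92 to 3.18, with Neurog2 at 0 in every library, and the 5 mesoderm markers to at most 2.20. The fibroblast sum and most of its single genes went different ways in 2i/LIF. Of the 5 tested markers, 4 were above 0 in Dax1KO (median log2 fold change 1.35), and only Thy1, lower at -0.85, passed the test given below. In these bulk samples a smaller number of cells of a type and less RNA per cell cannot be told apart. The part of other cell types in the results below was not tested.

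Mcl1 and Bax had the highest levels of the 10 members in every group and Bcl2 the lowest, and which of Mcl1 and Bax came first turned with the gene length used. The level divides by exon length, so that genes of different length could be set side by side, and on this scale Mcl1 was first in every group. Mcl1 stood at 99.4 ± 13.3 (SD, n = 2) in control and 77.98 ± 4.10 in Dax1KO in 2i/LIF, and at 181 ± 5.67 and 167 ± 30.6 in LIF/serum. Its share of the summed level of the 10 members was 37.9% ± 1.02 and 32.6% ± 0.587 in 2i/LIF and 45.4% ± 3.20 and 43.0% ± 4.66 in LIF/serum. With the longest transcript as the length, the 4 shares were 31.8%, 26.9%, 38.4% and 36.5%, and Bax had the higher mean level in 2i/LIF, at 104 against 99.4 for Mcl1 in control and 97.9 against 77.98 in Dax1KO. In LIF/serum the means with that length were 181 for Mcl1 and 176 for Bax in control and 167 and 150.0 in Dax1KO, but the order turned in 1 of 2 libraries of each group. Bax had 41.9% of the summed level against 36.2% for Mcl1 in control replicate 2 and 35.4% against 33.1% in Dax1KO replicate 1.

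Per exon length Bax was second in all 4 groups, from a mean level of 68.3 in Dax1KO in 2i/LIF to 123 in control in LIF/serum, and its libraries did not overlap those of Mcl1 in any group. Bak1 came next in 3 groups at 29.4 to 37.8. In Dax1KO in 2i/LIF, Bid came next at 24.1, and Bid, Bak1 (23.2) and Bbc3 (21.1) overlapped with their neighbours in the order. Below them lay Bid, Bbc3 and Pmaip1, with means between 11.2 and 24.1 over the groups, then Bcl2l1 at 5.96 to 8.17, and then Bmf at 2.16 to 5.76 and Bcl2l11 at 1.49 to 4.55. Bmf and Bcl2l11 overlapped in control in 2i/LIF, where Bmf was above, and in LIF/serum control Bcl2l11 was above Bmf with no overlap between the pair. Some of these ranks, by the means, also turned with the longest transcript as the length. Bcl2l1 was then above Pmaip1 in control, at 13.79 against 13.62 in 2i/LIF and 13.8 against 11.3 in LIF/serum, Bid was above Bbc3 in control in 2i/LIF (24.8 against 20.8), Bbc3 was above Bak1 in Dax1KO in 2i/LIF (24.7 against 23.4) and above Pmaip1 in Dax1KO in LIF/serum (19.9 against 19.2), and Bcl2l11 was above Bmf in control in 2i/LIF (3.01 against 2.44). The level of Bcl2 lay between 0.0174 and 0.0726, so that of the 3 anti-apoptotic genes nearly all reads came from Mcl1 and Bcl2l1.

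**Figure D1:**
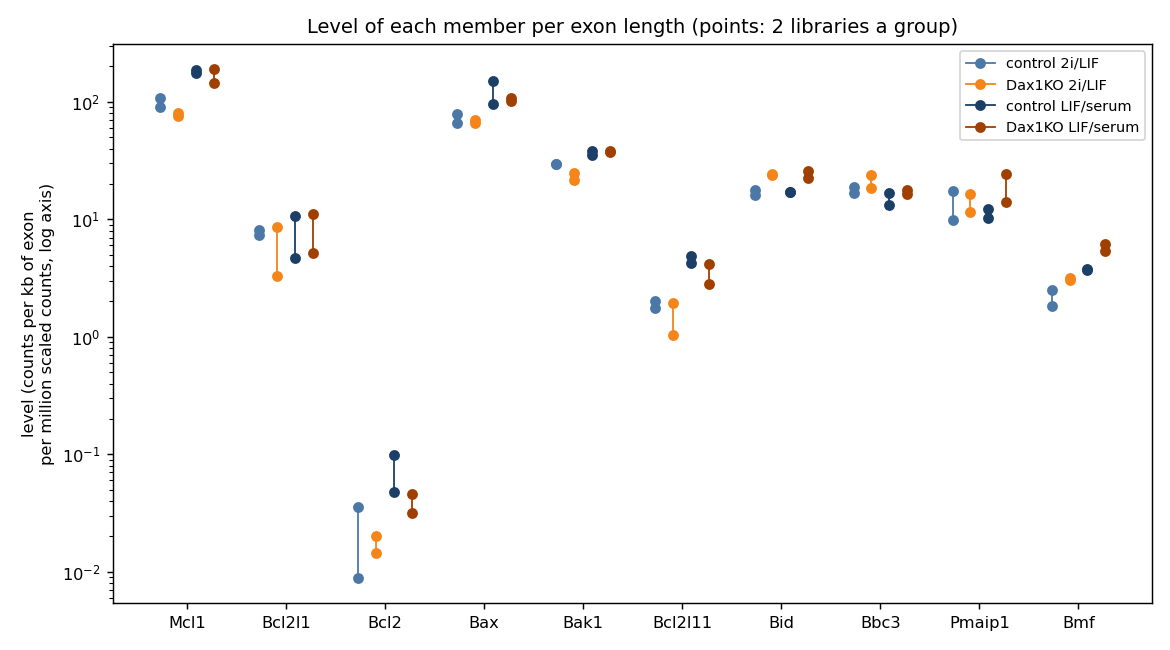
Level of the 10 members per exon length (vertical log axis, counts per kb of exon and 1000000 scaled counts) in the 4 groups, 1 point per library and a line between the 2 libraries of a group. Mcl1 and Bax lie highest, with mean levels from 68.3 to 181, and Bcl2 lies lowest at 0.0174 to 0.0726.

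Culture medium was the comparison with the most members past the test, and also that with the most of all genes past it. Each member was compared between 2i/LIF and LIF/serum within control cells and within Dax1KO cells, and a gene was called where its adjusted p was 0.05 or less and its fold change 1.2 or more (edgeR quasi-likelihood test, Benjamini-Hochberg adjustment over the 20749 genes). In control cells 4 of the 10 members were lower in 2i/LIF and none was higher. These were Mcl1, Bax, Bcl2l11 and Bmf. Of all genes tested, 36.8% were called in this comparison, 16.5% as lower and 20.3% as higher. In Dax1KO cells 4 members were also lower and none higher, namely Mcl1, Bak1, Bcl2l11 and Bmf, with 28.9% of all genes called, 13.7% as lower and 15.2% as higher. The median log2 fold change of the 10 members was -0.54 in control and -0.66 in Dax1KO cells, where the median of all genes was 0.01 in both.

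Mcl1 (chromosome 3, 95658788 to 95663176, plus strand, GRCm38 here and below), which protects many cell types through a short-lived protein, had normalized counts of 11304 and 13657 in control in 2i/LIF and of 22199.7 and 23206 in control in LIF/serum. The Dax1KO libraries stood at 9429 and 10156 in 2i/LIF and at 18278 and 23705 in LIF/serum. Every library in 2i/LIF was below every library in LIF/serum. The log2 fold change was -0.86 (SE 0.15, edgeR adjusted p 0.00322) in control and -1.10 (SE 0.15, edgeR adjusted p 0.00144) in Dax1KO cells, and Mcl1 was called under all 16 alternatives in both.

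Bcl2l11 (chromosome 2, 128126038 to 128162547, plus strand), which codes for the BH3-only activator BIM, had the largest fold change among the called members. Its normalized counts were 596 and 519 in control in 2i/LIF against 1441 and 1244 in LIF/serum, and 304 and 577 in Dax1KO in 2i/LIF against 837 and 1229.5 in LIF/serum. As for Mcl1, no library in 2i/LIF reached the lowest library in LIF/serum. This corresponds to a log2 fold change of -1.27 (SE 0.30, edgeR adjusted p 0.0133) in control and -1.23 (SE 0.31, edgeR adjusted p 0.0194) in Dax1KO. In control the adjusted p rose to 0.0512 without control 2i/LIF replicate 1, to 0.0776 without control 2i/LIF replicate 2 and to 0.0609 without control LIF/serum replicate 1. In Dax1KO it rose to 0.0875 without Dax1KO 2i/LIF replicate 1 and to 0.116 without Dax1KO LIF/serum replicate 2, and with no filter on low counts it was 0.0566.

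Bmf (chromosome 2, 118528757 to 118549687, minus strand), a BH3-only gene of which the protein is held on the cytoskeleton in healthy cells, followed the same direction. Its normalized counts were 482 and 351 against 709 and 732 in control and 591 and 615 against 1038 and 1186 in Dax1KO, 2i/LIF first in each pair. The groups did not overlap between media in either cell line. On the log2 scale Bmf differed by -0.79 (SE 0.18, edgeR adjusted p 0.0108) in control and -0.88 (SE 0.18, edgeR adjusted p 0.00842) in Dax1KO. The control value passed the threshold in all leave-one-out fits but the one without control 2i/LIF replicate 2 (adjusted p 0.0508). The Dax1KO value missed it without either Dax1KO 2i/LIF library (0.0612 and 0.0565) and without Dax1KO LIF/serum replicate 2 (0.0564).

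The effectors were both below 0 in both cell lines, with Bax called in control and Bak1 in Dax1KO, while Bax in Dax1KO lay at the threshold. Bax (chromosome 7, 45461697 to 45466898, minus strand) had normalized counts of 3835 and 4596 in control in 2i/LIF against 5565 and 8651 in LIF/serum. The Dax1KO libraries stood at 3819.5 and 4090.4 in 2i/LIF and at 6296 and 5829 in LIF/serum. The log2 fold change of Bax was -0.75 (SE 0.20, edgeR adjusted p 0.0198) in control and -0.62 (SE 0.20, edgeR adjusted p 0.0506) in Dax1KO. The control value was -0.42 (adjusted p 0.0781) without control LIF/serum replicate 2, the library with the highest Bax count, and -0.62 (adjusted p 0.117) without control 2i/LIF replicate 1, and with no filter its adjusted p was 0.0570. Bax in Dax1KO passed the test under 8 of 16 alternatives, which were RLE factors (0.0476), DESeq2 (0.0124), at least 10 counts in every library (0.0392), separate fits (0.00706), the replicate block (0.0372), counts divided by 3 (0.0390) and leaving out either control LIF/serum library (0.0101 and 0.0114). The difference between the cell lines in this change was 0.14 (95% confidence interval -0.51 to 0.78, edgeR adjusted p 0.861) and did not pass.

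Bak1 (chromosome 17, 27019810 to 27029009, minus strand) had normalized counts of 2600.0 and 2602 in control in 2i/LIF against 3369 and 3143 in LIF/serum. The Dax1KO libraries stood at 2203 and 1896 in 2i/LIF and at 3289 and 3393 in LIF/serum. Both cell lines had the lower libraries in 2i/LIF with no overlap. The log2 fold change was -0.32 (SE 0.12, edgeR adjusted p 0.0598) in control and -0.70 (SE 0.12, edgeR adjusted p 0.00334) in Dax1KO, called under 4 and 16 of 16 alternatives. The difference between the cell lines in this change was -0.38 (95% confidence interval -0.76 to -0.0026, adjusted p 0.257) and did not pass.

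The other 5 members were not called between media in either cell line. Bid differed by -0.01 in control (95% confidence interval -0.28 to 0.26) and by less than 0.01 in Dax1KO (-0.27 to 0.27). Bbc3 was at 0.24 and 0.31, with the Dax1KO libraries in 2i/LIF (1446 and 1844) above those in LIF/serum (1270.4 and 1388). Pmaip1 had 0.28 in control and -0.47 in Dax1KO, with overlapping libraries in both. Bcl2 was at -1.69 and -1.14 with wide intervals (-3.46 to 0.09 and -2.98 to 0.71), from 3 to 12 reads per library in 2i/LIF and 11 to 31 in LIF/serum. In all, 6 members in control and 7 in Dax1KO had libraries that did not overlap between media, where 68.6% and 68.9% of all genes did not overlap.

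Bcl2l1 differed widely between the 2 libraries of a group, and no difference between groups could be read from it. Its normalized counts were 1233 and 1369 in control in 2i/LIF, 554 and 1452 in Dax1KO in 2i/LIF, 1815 and 787 in control in LIF/serum and 1875 and 877 in Dax1KO in LIF/serum. The coefficient of variation was 7.39% in the first group and 63.3%, 55.9% and 51.3% in the others. In the latter 3 groups 95.6%, 92.4% and 92.1% of the tested genes had a gap between their 2 libraries that was no larger than that of Bcl2l1. The log2 differences of Bcl2l1 between media were 0.00 in control (-1.24 to 1.24) and -0.46 in Dax1KO (-1.70 to 0.79).

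**Figure D2:**
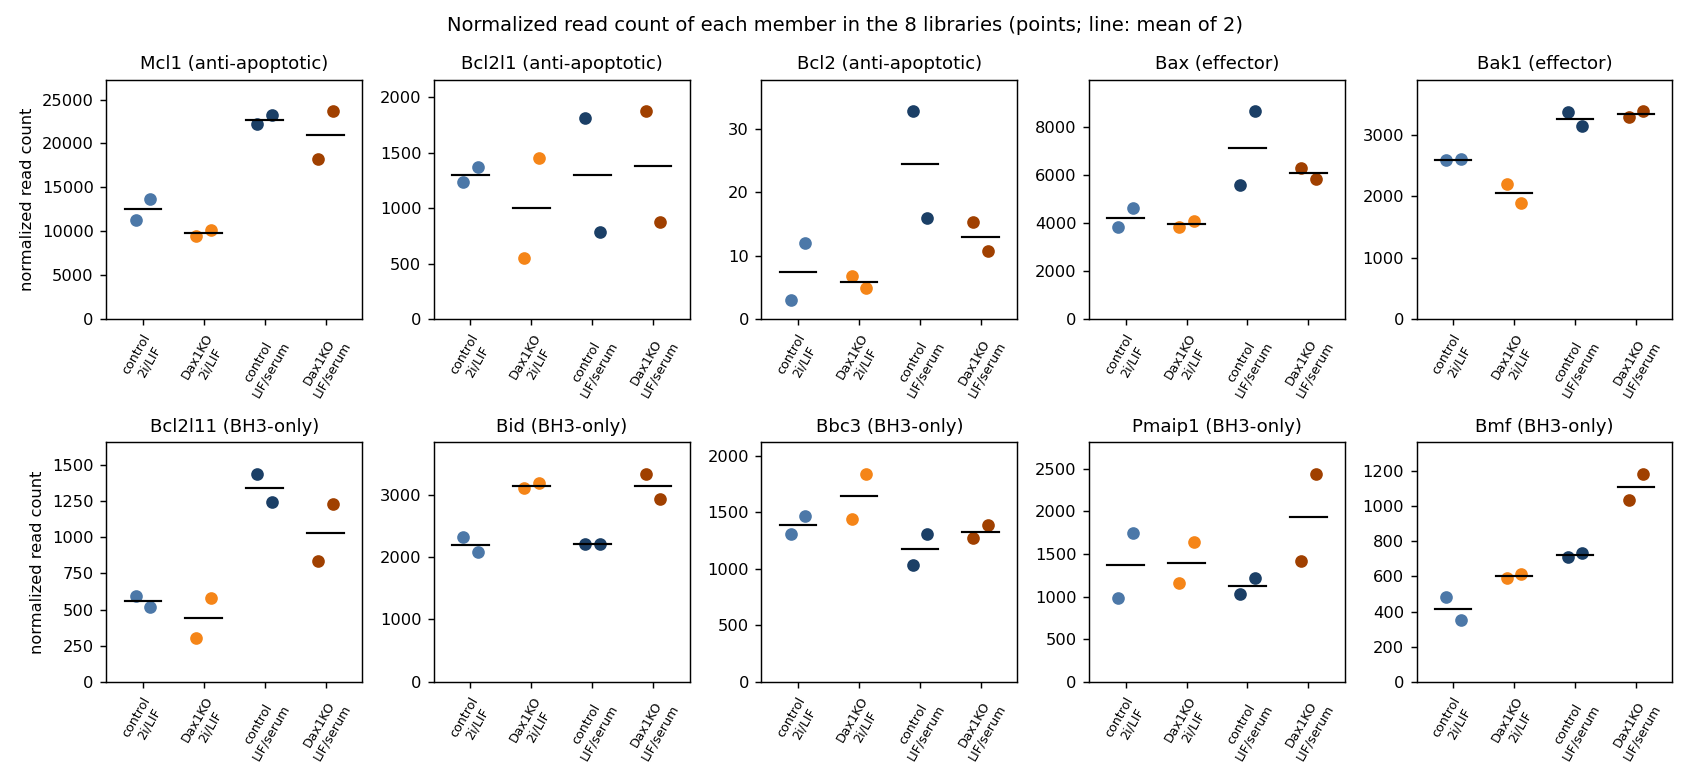
Normalized read count (vertical axes, each from 0) of the 10 members in the 8 libraries, 1 panel per member, with a line at the mean of the 2 libraries of a group. Mcl1, Bcl2l11 and Bmf are lower in 2i/LIF than in LIF/serum of the same cell line, Bid is higher in Dax1KO than in control in both media, and the 2 libraries of Bcl2l1 lie far apart in 3 of the 4 groups.

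The stretches before the transcription starts of Bcl2l11 and Mcl1 are shown because these were the 2 members with the largest called changes between media in the same direction. They were taken from the RefSeq promoter table of GRCm38.p6, each 250 bases up to the base before the start, 5′ to 3′ on the plus strand, Bcl2l11 from chr2:128125788-128126037 and Mcl1 from chr3:95658471-95658720. Capitals mark matches to an ETS motif (CCGGAAG, either strand) and to a FOXO motif (GTAAACA, either strand). ETS factors are nuclear targets of the ERK pathway, and FOXO factors are known activators of Bcl2l11.
Bcl2l11: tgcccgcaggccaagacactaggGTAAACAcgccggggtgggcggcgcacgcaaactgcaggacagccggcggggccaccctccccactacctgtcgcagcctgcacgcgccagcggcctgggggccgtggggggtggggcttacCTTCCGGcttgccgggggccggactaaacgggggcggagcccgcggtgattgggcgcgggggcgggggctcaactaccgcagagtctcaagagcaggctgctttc
Mcl1: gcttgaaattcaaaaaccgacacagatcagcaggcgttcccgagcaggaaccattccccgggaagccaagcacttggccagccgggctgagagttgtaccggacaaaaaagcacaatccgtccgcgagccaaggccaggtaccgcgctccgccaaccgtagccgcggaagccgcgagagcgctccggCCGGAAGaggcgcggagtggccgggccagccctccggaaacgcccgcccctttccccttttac
The ETS match lay 105 bases before the start of Bcl2l11 on the minus strand and 63 bases before that of Mcl1 on the plus strand, and 6.91% of the 32851 promoters of the table held this motif. The FOXO match lay 227 bases before the start of Bcl2l11, another lay 167 bases before a start of Bbc3, and 3.17% of all promoters held it. Only the 250 bases before each start were searched, for the members as for all promoters. The members had 16 such promoters, of 9 of the 10 members. The E-box CACGTG was found at Bbc3 and Bax (6.02% of all promoters) and the nuclear receptor half-site AAGGTCA at Bcl2l1 (4.08%). Another promoter of Bcl2l11 held none of these motifs. No member promoter held the motif TCAAGGTCA of NR5A and ESRRB, which contains the half-site, the STAT motif TTCNNNGAA, the TCF/LEF motif CTTTGAT or the CRE motif TGACGTCA, which were in 0.387%, 7.02%, 3.21% and 1.55% of all promoters. A match of letters is a description and not a site in use.

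Fewer members were called between Dax1KO and control than between media, as was so for all genes. The comparison asks whether apoptosis genes of this family changed in Dax1KO cells and whether they did so differently in the 2 media. In 2i/LIF none of the 10 members was called, where 3.16% of all genes were (1.51% as higher and 1.65% as lower), and 4 members (Mcl1, Bak1, Bid and Bmf) had an unadjusted p under 0.05, as had 17.9% of all genes. With DESeq2, 1 member, Bid, was called in 2i/LIF. In LIF/serum 1 of the 10 members, Bid, was called as higher, where 14.7% of all genes were called, 8.87% as higher and 5.78% as lower, and 3 members (Bid, Pmaip1 and Bmf) had an unadjusted p under 0.05, as had 30.7% of all genes. The median log2 fold change of the members was -0.22 in 2i/LIF and 0.06 in LIF/serum, beside -0.01 and 0.01 over all genes. In 2i/LIF the Dax1KO libraries of Bid and Bmf were all above and those of Mcl1 and Bak1 all below the control libraries. In LIF/serum Bid, Pmaip1 and Bmf were above and Bcl2 and Bcl2l11 below. These 4 and 5 members without overlap compare with 51.8% and 57.5% of all genes.

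Of the 3 anti-apoptotic genes, none was called in either medium. Mcl1 had a log2 fold change of -0.35 in 2i/LIF (95% confidence interval -0.70 to -0.0040, edgeR adjusted p 0.273) and of -0.11 in LIF/serum (-0.46 to 0.23), where without Dax1KO LIF/serum replicate 1 it was 0.06. Bcl2l1 stood at -0.38 (-1.62 to 0.87) and 0.08 (-1.16 to 1.32). Bcl2 stood at -0.35 (-2.27 to 1.56) and -0.90 (-2.59 to 0.79), and at counts this low a change of 2-fold was not detectable. Of the effectors, Bax was at -0.09 (-0.55 to 0.37) and -0.23 (-0.69 to 0.23). Bak1 was at -0.34 in 2i/LIF (-0.61 to -0.08, edgeR adjusted p 0.170) and at 0.04 in LIF/serum (-0.23 to 0.30).

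Among the BH3-only genes, 4 of 5 had values above 0 in Dax1KO in both media, but Bid was the only one called. Bmf was at 0.53 in 2i/LIF (SE 0.18, edgeR adjusted p 0.170) and at 0.63 in LIF/serum (SE 0.18, edgeR adjusted p 0.0525), and in both media both Dax1KO libraries were above both control libraries. In LIF/serum Bmf was past the threshold under 6 of 16 alternatives, among them DESeq2 (0.0166) and scaling without chromosome 6 (0.0476). Without control 2i/LIF replicate 1 it was at 0.0396 and without control 2i/LIF replicate 2 at 0.0429.

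Pmaip1, a p53 target of which the protein acts against MCL1, had normalized counts of 986 and 1744 in control and 1157 and 1635 in Dax1KO in 2i/LIF. In LIF/serum these were 1032 and 1223 against 1413 and 2442, so that both Dax1KO libraries were above the control but lay far apart. The log2 fold change was 0.03 (-0.74 to 0.80) in 2i/LIF and 0.77 (95% confidence interval 0.00028 to 1.55, edgeR adjusted p 0.163) in LIF/serum, and over the leave-one-out fits the latter ran from 0.33 to 1.12. It passed only with the replicate block, at 0.72 (adjusted p 0.0340). Bbc3, another p53 target, was at 0.25 (-0.15 to 0.64) and 0.18 (-0.22 to 0.58). Bcl2l11 was the exception among the BH3-only genes at -0.34 (-1.04 to 0.36) and -0.38 (-1.07 to 0.31).

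No member passed the test of the difference in the Dax1KO effect between the 2 media, where 2.87% of all genes did, 0.824% as higher and 2.05% as lower. One member, Bak1, had an unadjusted p under 0.05, with a difference of -0.38 in 2i/LIF less LIF/serum. The largest differences were those of Pmaip1 at -0.74 (95% confidence interval -1.83 to 0.35, edgeR adjusted p 0.452) and Bcl2 at 0.55 (-2.04 to 3.14). For Bid the difference was 0.01 (-0.37 to 0.39) and for Bmf -0.09 (-0.68 to 0.49). The lack of calls does not show that the effects were alike in both media.

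**Figure D3:**
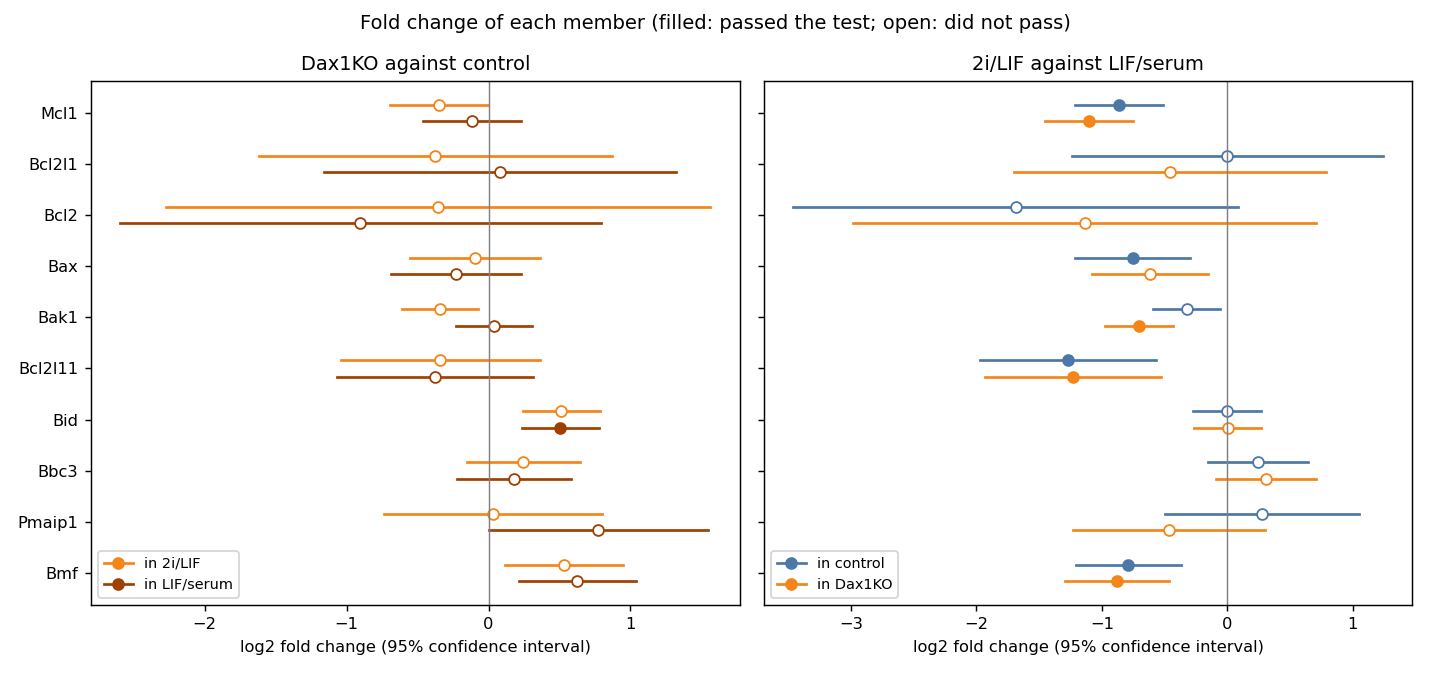
Log2 fold change (horizontal axis) of each member with its 95% confidence interval (line), for Dax1KO against control in both media (left) and for 2i/LIF against LIF/serum in both cell lines (right). Filled points passed the test and open points did not. Bid in LIF/serum is the only filled point on the left, and Mcl1, Bcl2l11 and Bmf are filled in both cell lines on the right.

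Bid, which codes for the BH3-only protein that Casp8 cleaves to link death receptors to mitochondria, had normalized counts of 2322 and 2082 in control and 3104 and 3183 in Dax1KO in 2i/LIF. In LIF/serum it had 2207 and 2215 in control and 3339.7 and 2936 in Dax1KO. All 4 Dax1KO libraries were above all 4 control libraries. The log2 fold change was 0.51 (SE 0.12, edgeR adjusted p 0.0604) in 2i/LIF and 0.50 (SE 0.12, edgeR adjusted p 0.0281) in LIF/serum, which is 1.43-fold and 1.42-fold. In 2i/LIF Bid was past the threshold with DESeq2 (0.00476), with at least 10 counts required in every library (0.0441) and with counts divided by 3 (0.0467). In LIF/serum the call was lost with a separate fit of that medium (0.0802), without Dax1KO 2i/LIF replicate 1 or 2 (0.0618 and 0.0610), without control LIF/serum replicate 1 or 2 (0.0747 and 0.0793) and without Dax1KO LIF/serum replicate 1 or 2 (0.133 and 0.0691).

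Bid lies on chromosome 6 (GRCm38, 120891930 to 120916853, minus strand), and the genes of that chromosome were shifted upwards as a body in Dax1KO. The 1053 other tested genes of chromosome 6 had medians of 0.44 (2i/LIF) and 0.52 (LIF/serum) on the log2 scale, and 79.0% and 76.7% of them were above 0. The median of the 19652 tested genes of the other chromosomes was -0.03 and 0.00. Bid differed from the median of its chromosome by 0.07 in 2i/LIF and by -0.01 in LIF/serum, which is less than its own SE in both. Of the other genes of the chromosome, 56.7% lay below Bid in 2i/LIF and 49.2% in LIF/serum. Against the 256 tested genes within 10 Mb, Bid differed by 0.08 and -0.03, and against the 192 genes of chromosome 6 with a mean count within 2-fold of that of Bid by 0.03 and 0.02. The difference of Bid was thus close to the median of chromosome 6 in both media.

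Among the neighbours of Bid within 200 kb, Bcl2l13 was at 0.69 and 0.91, Mical3 at 0.77 and 1.01 and Cecr2 at 0.36 and 0.55, while Atp6v1e1 was at 0.12 and -0.01. Bcl2l13 and Mical3 were called in both media and Cecr2 in LIF/serum. Of the 1053 tested genes of chromosome 6 other than Bid, 10.5% were called in 2i/LIF and 29.8% in LIF/serum. The other tested neighbours had few reads and were not called, which were Slc25a18 (0.90 and -0.11, 6 to 28 reads), Gm43916 (0.061 and 1.14, 2 to 12 reads), Gm43915 (0.44 and 0.77, 8 to 20 reads) and, overlapping Bid outside its exons, Gm17812 (-0.13 and 0.92, 3 to 12 reads) and Gm44260 (0.40 and 0.53, 9 to 53 reads). Gm25193, Gm4651 and Minpp1-ps had at most 3 reads in any library and were not tested. Bcl2l13 overlaps exons of Bid on the opposite strand, and 26.0% of the longest Bid transcript matched it. The strand setting of the counting is not given in the sources used here, and reads in this stretch cannot be assigned to one gene with certainty. Reads may be shared likewise for Bak1, of which 25.8% matched Ggnbp1 on the opposite strand (163 to 354 reads), for Bax, of which 17.6% matched Gm45808 on the same strand (0 to 13 reads), and for Bcl2, of which 7.84% matched D630008O14Rik on the opposite strand (0 to 3 reads). Mir3473f and Gm37053, which overlap Bcl2 outside its exons, were at 0 in every library. The other 6 members had no match in another gene at 95% identity.

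**Figure D4:**
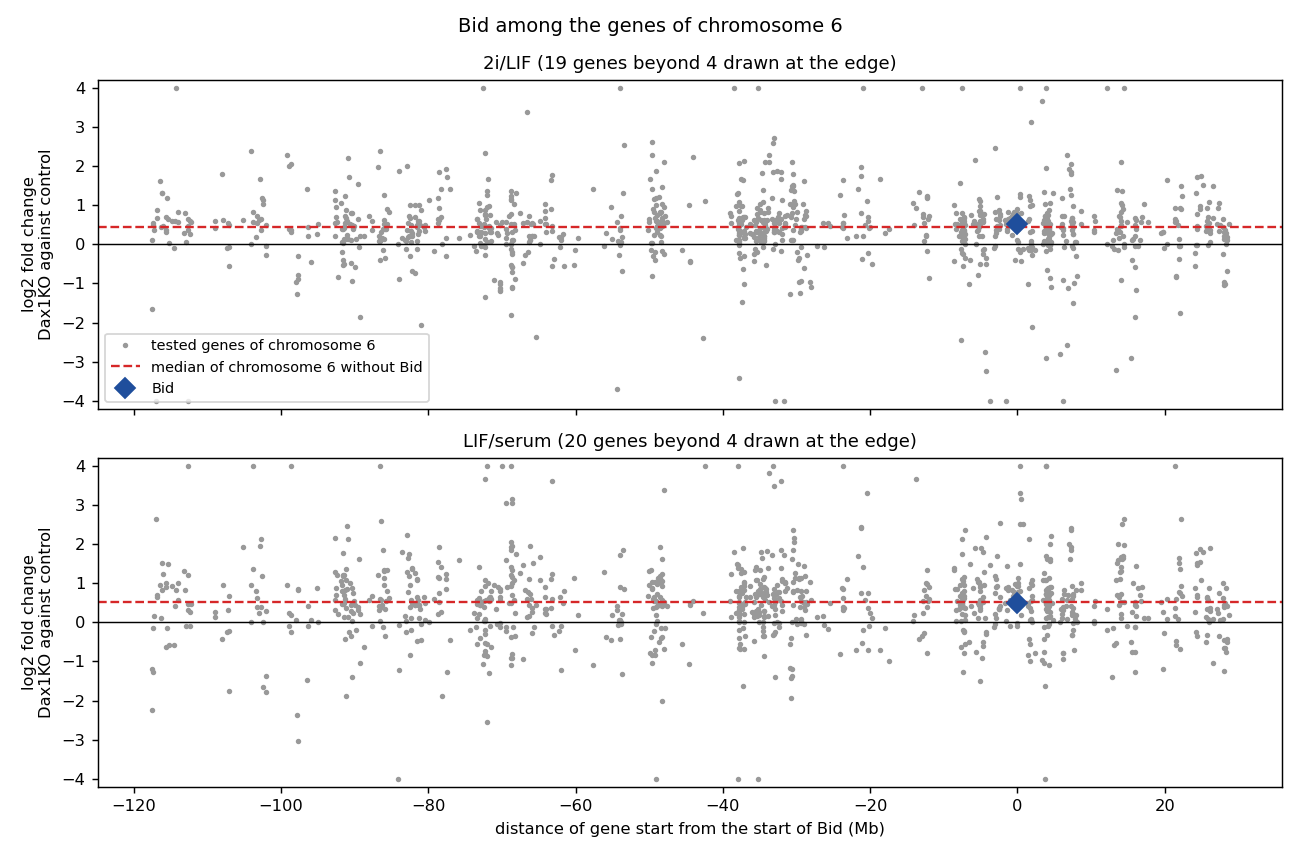
Log2 fold change of Dax1KO against control (vertical axis) for the tested genes of chromosome 6 by the distance of their start from that of Bid (horizontal axis, Mb), in 2i/LIF (top) and LIF/serum (bottom). The dashed line is the median of the chromosome without Bid (0.44 and 0.52), and Bid (diamond, 0.51 and 0.50) lies next to it in both media. Genes beyond 4 on the log2 scale are drawn at the edge.

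The summed level of the 5 BH3-only genes was set against that of the 3 anti-apoptotic genes within each library, a ratio that needs no scaling between libraries and was chosen after the values were seen. It was 0.476 to 0.503 in control and 0.739 to 0.776 in Dax1KO in 2i/LIF, and 0.261 to 0.285 and 0.386 to 0.410 in LIF/serum. The libraries of Dax1KO were thus above those of control in each medium, and those in 2i/LIF above those in LIF/serum in each cell line. Because Bid lies on the shifted chromosome 6, the ratio was also taken without Bid, and it was then 0.320 to 0.340 against 0.436 to 0.503 in 2i/LIF and 0.171 to 0.195 against 0.246 to 0.270 in LIF/serum. The order of the groups was the same with the longest transcript as the length. The ratio of the anti-apoptotic genes to the effectors was 1.02 to 1.07 in control and 0.863 to 0.972 in Dax1KO in 2i/LIF, and the groups overlapped in LIF/serum (1.02 to 1.40 and 1.07 to 1.40). These are ratios of messenger RNA, with no test, and Mcl1 makes up most of the anti-apoptotic sum. Without Bid, Bbc3 and Pmaip1 make up most of the BH3-only sum. Neither was called in Dax1KO. The Dax1KO libraries of Bbc3 overlapped those of control in both media, and those of Pmaip1 did so in 2i/LIF.

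The genes whose counts followed each called member most closely over the 8 libraries were Pgam1 for Mcl1 (Pearson r 0.992 of log2 scaled counts), Upk1a for Bak1 (0.990), Sprr2a2 for Bmf (0.986), Mdga1 for Bcl2l11 (0.983) and Gm12251 for Bax (0.982). For Bid it was Rad51ap1 (0.995), which also lies on chromosome 6. The 8 libraries share their groups, media and cell lines, and these are the highest of 20749 genes, so the values are a description only.

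The rest of the apoptosis pathway was read from lists of genes. The share of all tested genes called was 3.16% for Dax1KO in 2i/LIF and 14.7% in LIF/serum (8.87% higher and 5.78% lower), and the counts of each list stand beside these shares. Of 15 other BCL2 family genes, 11 were tested. In 2i/LIF 2 were called as higher in Dax1KO, Bcl2l13 at 0.69 (edgeR adjusted p 0.0303) and Bcl2l14 at 1.39 (edgeR adjusted p 0.0165). In LIF/serum 3 were called as higher and none as lower, Bcl2l13 at 0.91, Bcl2l14 at 1.51 and Hrk at 1.28 (edgeR adjusted p 0.0269). Bcl2l13 and Bcl2l14 lie on chromosome 6. Both were called in LIF/serum under all 16 alternatives, while in 2i/LIF both calls were lost without any 1 of the 4 libraries in that medium (adjusted p from 0.103 to 0.185 and from 0.0873 to 0.119) and that of Bcl2l13 also without either Dax1KO LIF/serum library (0.0606 and 0.0615). With no filter on low counts the 2i/LIF calls were lost too (0.0692 for Bcl2l13 and 0.0536 for Bcl2l14). The median of the list was 0.13 in 2i/LIF and 0.20 in LIF/serum, beside -0.01 and 0.01 over all genes. Hrk, a BH3-only gene known from neurons, had normalized counts of 172 ± 13.6 (SD, n = 2) in control and 417 ± 38.1 in Dax1KO in LIF/serum, and its call was lost without any 1 of the 4 LIF/serum libraries (adjusted p from 0.0754 to 0.113) and with no filter (0.0585). Between media, 1 gene of this list was higher and 2 were lower in 2i/LIF in control, and 2 were higher and 3 lower in Dax1KO, where 36.8% and 28.9% of all genes were called. Bcl2l14 was at 2.34 and Hrk at -1.88 in this comparison, and Bcl2l10, at 0 in both Dax1KO libraries in 2i/LIF, was called as lower in Dax1KO cells.

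Of the 12 genes of the apoptosome and the caspases, all tested, none was called in Dax1KO in 2i/LIF, and 3 were higher and 2 lower in LIF/serum, beside 3.16% of all genes called in 2i/LIF and 8.87% higher and 5.78% lower in LIF/serum. Casp9, the initiator caspase of the apoptosome, had normalized counts of 636 ± 67.4 in control and 1289 ± 21.6 in Dax1KO in LIF/serum and was called under all 16 alternatives (log2 fold change 1.02, SE 0.13, edgeR adjusted p 0.00423). The executioner Casp6 was at 0.89 (adjusted p 0.0322) and Cycs, the cytochrome c gene on chromosome 6, at 0.64 (0.0192). The initiator of the death receptor route, Casp8, was lower at -0.94 (0.0332), from 78.7 ± 6.35 to 41.0 ± 4.23 normalized counts. The list thus held changes in both directions. Of the 7 inhibitors of apoptosis and their antagonists 1 was called in LIF/serum, the antagonist Htra2 on chromosome 6 at 0.65 (0.0243), and of the 7 death receptor genes 1, the adaptor Tradd at 1.22 (0.00908). None of these 14 genes was called in 2i/LIF, and 1 of 7 in LIF/serum is close to the 14.7% called over all genes. The medians of the 3 lists in LIF/serum were 0.19, -0.03 and 0.17. The call of Casp8 was lost without any 1 of the 8 libraries (0.0512 to 0.157). That of Casp6 was lost without either Dax1KO 2i/LIF library (0.0627 and 0.0622), either control LIF/serum library (0.119 and 0.0725) and Dax1KO LIF/serum replicate 2 (0.176), and that of Cycs without either control LIF/serum library (0.0638 and 0.0694) and Dax1KO LIF/serum replicate 2 (0.111). Htra2 was lost without either Dax1KO library of each medium and without control LIF/serum replicate 1 (0.0551 to 0.108), and Tradd without Dax1KO LIF/serum replicate 2 (0.0604). With separate fits of each medium the calls of Casp8 (0.110), Casp6 (0.0693), Cycs (0.0589) and Htra2 (0.0702) were also lost, and with no filter that of Casp6 (0.0668).

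Of the 14 genes of p53 and its targets, none was called in Dax1KO in 2i/LIF, and 3 were higher and 1 lower in LIF/serum, beside the same shares of all genes. Trp53 itself was lower at -0.80 (SE 0.11, edgeR adjusted p 0.00505), and its targets Cdkn1a, a brake on the cell cycle, Ei24 and Sesn1 were higher at 1.14, 0.76 and 0.66. Trp53 and Cdkn1a were called under all 16 alternatives, while Ei24 was lost without Dax1KO LIF/serum replicate 1 (0.0602) and Sesn1 without control LIF/serum replicate 2 (0.0793) and either Dax1KO LIF/serum library (0.0691 and 0.106) and with separate fits (0.0574). Bbc3 and Pmaip1, the members named above as p53 targets, were not called. The other members were not sorted by whether they are p53 targets. Of the 10 regulators of BCL2 proteins, Foxo3 was higher in LIF/serum at 0.51 (edgeR adjusted p 0.0405), a call lost under 10 of 16 alternatives, among them those without any library but control LIF/serum replicate 1 (0.0633 to 0.181), and the others of this list were not called. Between media in control cells, the apoptosome and caspase list had 5 genes higher and 2 lower in 2i/LIF, the death receptor list 2 and 2, the inhibitor list 1 and 0, the p53 list 3 and 4 and the regulators none. In Dax1KO cells these counts were 5 and 2, 0 and 1, 1 and 0, 1 and 3, and 0 and 1. Of all genes 36.8% were called between media in control and 28.9% in Dax1KO, and nothing particular to a list is read from these counts. In control cells Casp9 was at 1.55, Casp8 at 1.28 and Cflar, the inhibitor of Casp8, at -3.30. Casp9 and Casp8 were thus higher in the medium in which Mcl1, Bax, Bcl2l11 and Bmf were lower.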

How the data were processed

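The authors deposited counts, whole numbers of reads per gene and library without normalization, for 8 libraries. The submitters' processing notes list HISAT2 2.0.4, DESeq2 and the build mm10 without saying what each was used for, and the counting method, its annotation and its strand setting are not given in the sources used here. Libraries were grouped by the labels. Symbols came from GENCODE M21 (GRCm38), which held 52403 of the 52550 genes listed, and 147 genes had no symbol.

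The counts were fitted in edgeR 4.0.16 (R 4.3.3) after a filter with filterByExpr, libraries were scaled by TMM (factors 0.960 to 1.04), and a quasi-likelihood model with 4 group means was fitted to 20749 genes. Adjustment was by Benjamini-Hochberg over all genes tested. A difference between media in the Dax1KO effect was called by the adjusted p alone. Normalized counts are counts scaled to the mean library. Bcl2, with few reads, is limited by counting error.

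The members and the lists were chosen with earlier results of these data known. Named were all members with every library, in each list at most 4 genes that passed in any contrast, ranked by the smallest adjusted p in a Dax1KO contrast, the gene most correlated with each called member, genes that overlap a member or lie within 200 kb of Bid, and Dax1. Transcripts were compared with blastn 2.17.0. Alternatives were RLE factors, DESeq2 1.42.0, no filter, 10 counts in every library, separate fits, a replicate block, scaling without chromosome 6, counts divided by 3 (low counts piled up at multiples of 3), an unadjusted p and each library left out in turn. One gene of the pathway lists that was called between Dax1KO and control is counted with its list but not reported by name here. Further genes that were called only between media are also counted without a name.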

Additional observations from a re-analysis of the deposited data

Results flagged for a closer look

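The effect of Dax1KO differed between the media for 3 of the 14 genes of the p53 list, none of them a member of the BCL2 family. This was by a test of the difference itself (edgeR quasi-likelihood test, 2i/LIF less LIF/serum). All 3 were called as lower, where 2.05% of all genes were called as lower and 2.87% in either direction. The lists were chosen with earlier results of these data known. Cdkn1a was at -0.23 in 2i/LIF and 1.14 in LIF/serum, a difference of -1.37 (SE 0.21, edgeR adjusted p 0.0224). Its normalized counts had means of 6565 in control and 5590.3 in Dax1KO in 2i/LIF, and of 2308 and 5089 in LIF/serum. Sesn1 was at -0.48 and 0.66, a difference of -1.13 (SE 0.19, edgeR adjusted p 0.0299), and Ei24 at -0.16 and 0.76, a difference of -0.92 (SE 0.19, edgeR adjusted p 0.0482). These calls were made under 8, 7 and 6 of 15 alternatives for Cdkn1a, Sesn1 and Ei24, with adjusted p of up to 0.100, 0.128 and 0.174. They were lost without either Dax1KO 2i/LIF library and without either Dax1KO LIF/serum library in all 3 genes. Bbc3 and Pmaip1, the members named above as p53 targets, did not pass this test (0.07 and -0.74), nor did any other member.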

How the results depend on the processing

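Leaving out a library leaves a group with 1 sample, which is then assumed to vary like the others. Over these fits the members called ran from 0 to 0 for Dax1KO in 2i/LIF, 0 to 2 in LIF/serum, 2 to 4 between media in control and 2 to 5 in Dax1KO, and the genes called from 38 to 673, 728 to 2496, 5057 to 7120 and 2986 to 6286, and from 36 to 344 for the difference between media. For Dax1KO in 2i/LIF (0 members, 656 genes), DESeq2 called 1 member and 1455 genes, at least 10 counts 1 member, counts divided by 3 1 member, no filter 121 genes and the unadjusted p 4 members and 3682 genes. In LIF/serum (1 member, 3041 genes), DESeq2, at least 10 counts, scaling without chromosome 6 and counts divided by 3 called 2 members each, separate fits 0 members and 1743 genes, no filter 1842 genes and the unadjusted p 3 members and 6335 genes. For the difference (0 members, 596 genes), DESeq2 called 1510 genes, no filter 119 and the unadjusted p 1 member and 3970 genes. The cause was not tested. With the longest transcript the share of Mcl1 was 31.8%, 26.9%, 38.4% and 36.5%.

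The replicate numbers do not pair the libraries by the labels or by the deviations, whose correlations were 0.080, 0.108, 0.062 and -0.0023. With a replicate block 2 members were called in Dax1KO in LIF/serum, Bid and Pmaip1 (0.72, adjusted p 0.0340), Bax passed between media in Dax1KO (0.0372) and Foxo3 did not pass (0.0511).

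Directions turned only for values that had not passed. With no filter, Bid was at -0.0062 for the difference and 0.0081 between media in control. Between media in Dax1KO, Bid was at -0.011 with RLE factors and DESeq2, -0.014 with at least 10 counts, -0.020 with separate fits and -0.016 with counts divided by 3. Bcl2l1 between media in control was at -0.029 with RLE factors and DESeq2, -0.036 with at least 10 counts, -0.0099 with separate fits and -0.041 with counts divided by 3. Without 1 library, Dax1KO in 2i/LIF ran from -1.02 to 0.94 for Bcl2, -1.23 to 0.16 for Bcl2l1, -0.22 to 0.058 for Bax, -0.87 to 0.049 for Bcl2l11 and -0.32 to 0.52 for Pmaip1. In LIF/serum it ran from -0.57 to 0.81 for Bcl2l1, -0.31 to 0.065 for Mcl1, -0.51 to 0.11 for Bax and -0.023 to 0.088 for Bak1. The difference ran from -0.12 to 1.86 for Bcl2, -1.31 to 0.19 for Bcl2l1, -0.21 to 0.42 for Bax, -0.50 to 0.42 for Bcl2l11, -0.084 to 0.10 for Bid, -0.12 to 0.23 for Bbc3 and -0.28 to 0.15 for Bmf. Between media it ran in control from -0.50 to 0.73 for Bcl2l1, -0.083 to 0.027 for Bid and -0.24 to 0.63 for Pmaip1, and in Dax1KO from -1.31 to 0.19 for Bcl2l1 and -0.087 to 0.099 for Bid. Of all values of single genes under the alternatives, 902 kept direction and side of the threshold, 103 lost it, 22 gained it and 51 turned.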
